A study of Homo sapiens with 2 samples.

Results

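Strongly depleted windows are short stretches of DNA on a promoter array, in or near genes. There the ratio of a GATA1 pull-down to a control pull-down in the same hybridization was at least 8-fold under the array median. This holds for signals corrected by the scanner software. Before correction the signals of both pull-downs differed far less, as given below. A window was 3 adjacent probes, the outer ones no more than 1000 bp from the middle one. It was taken when the mean of its log2(IP/IgG) values was at most -3 after the median of the array had been set to 0. By this rule 366 of 415409 windows were taken, or 0.0881%, of which 157 of 208780 (0.0752%) were on the array chIP1 and 209 of 206629 (0.101%) on chIP2. Joined within 1000 bp, they made 229 regions, 101 and 128 on the 2 arrays. For scale, 40101 windows (9.65%; 9.71% on chIP1 and 9.59% on chIP2) had a mean of at most -1, and 164 (0.0395%; 0.0421% and 0.0368%) lay as far on the other side, at 3 or more.

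The windows come from a ChIP-on-chip experiment in Meg-01, a human megakaryocytic leukemia cell line, which was not treated. Chromatin of these cells was pulled down with the C-20 antibody against GATA1 (the IP) or with normal goat IgG, and the recovered DNA was ligated to linkers, amplified and labeled with Cy5 (IP) or Cy3 (IgG). Both DNAs were hybridized together to a promoter set of 2 Agilent arrays, chIP1 and chIP2, which carry different probes. Each probe was thus read once, without replicate or dye swap (1 hybridization), so no error between samples and no test can be given, and every value below describes these 2 arrays.

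GATA1 is a zinc finger transcription factor of red cells, megakaryocytes, eosinophils and mast cells that binds the motif WGATAR in promoters and enhancers. In ChIP, DNA that the factor occupies is recovered more often with its antibody than with IgG, which binds no particular chromatin protein and measures the background of the procedure. A ratio below the array median therefore has no reading as binding. It says only that the corrected IP signal of a stretch, relative to its corrected IgG signal, was lower than at the median of the array.

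The files give no probe sequences, so what follows is the RefSeq sequence (GRCh38.p14) of the 4 promoters whose start fell close to the center of the lowest window of a region and for which RefSeq sequence was at hand. Each runs from 250 bases before to 50 bases after the RefSeq start, 5′ to 3′ on the strand of the gene, with GATA and its reverse complement TATC in capitals. RGS13 encodes a regulator of G protein signaling, NT5C1B a cytosolic nucleotidase, XKR3 an XK-related protein and GPR174 a receptor for lysophosphatidylserine.
RGS13 (chr1:192635897-192636196, plus strand): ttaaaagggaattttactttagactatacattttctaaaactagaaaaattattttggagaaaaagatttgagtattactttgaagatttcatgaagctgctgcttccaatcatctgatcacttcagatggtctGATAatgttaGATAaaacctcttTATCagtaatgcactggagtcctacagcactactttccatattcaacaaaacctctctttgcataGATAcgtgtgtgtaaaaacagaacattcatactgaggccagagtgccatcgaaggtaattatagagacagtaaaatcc
NT5C1B (chr2:18589520-18589819, minus strand): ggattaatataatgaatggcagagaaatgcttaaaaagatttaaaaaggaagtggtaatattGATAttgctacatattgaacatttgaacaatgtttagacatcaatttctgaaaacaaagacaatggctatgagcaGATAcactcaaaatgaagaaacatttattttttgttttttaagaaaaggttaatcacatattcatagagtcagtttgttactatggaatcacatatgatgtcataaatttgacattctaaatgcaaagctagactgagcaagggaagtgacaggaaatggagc
XKR3 (chr22:16825362-16825661, minus strand): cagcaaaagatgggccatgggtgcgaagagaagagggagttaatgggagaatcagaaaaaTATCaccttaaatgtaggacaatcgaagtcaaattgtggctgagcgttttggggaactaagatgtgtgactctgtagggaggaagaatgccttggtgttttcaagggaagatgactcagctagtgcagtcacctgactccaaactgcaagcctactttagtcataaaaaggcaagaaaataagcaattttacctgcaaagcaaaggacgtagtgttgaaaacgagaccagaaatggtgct
GPR174 (chrX:79144438-79144737, plus strand): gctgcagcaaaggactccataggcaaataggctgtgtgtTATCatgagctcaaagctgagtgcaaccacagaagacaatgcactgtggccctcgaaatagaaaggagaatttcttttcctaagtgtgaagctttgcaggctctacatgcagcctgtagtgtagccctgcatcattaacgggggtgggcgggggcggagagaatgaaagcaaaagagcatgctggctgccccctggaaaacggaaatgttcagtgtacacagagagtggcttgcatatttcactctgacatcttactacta

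The center probe of the window lay 40 bp downstream of the start of RGS13, 48 bp upstream of NT5C1B, 13 bp upstream of XKR3 and 7 bp upstream of GPR174, by the annotation of the array. The start used by RefSeq can differ from that of the array. RGS13 held 4 matches of GATA or TATC in its 300 bases, NT5C1B 2, and XKR3 and GPR174 1 each. The GC share was lowest at NT5C1B, and it was 33.7% at RGS13, 43.3% at XKR3 and 48.7% at GPR174, all under the median of 58.3% over the 27305 promoters of the RefSeq table. The windows themselves were not uniform. The 3 probes of RGS13 read -0.93, -3.16 and -5.67, so that they were uneven, whereas those of GPR174 read -2.71, -3.20 and -3.25.

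Of the 211 genes with a strongly depleted window, 179 (84.8%) had a promoter in the RefSeq table. The median GC share of these promoters was 55.3%, with quartiles of 44.5% and 66.8%, and 70 (39.1%) were under 50% GC, against 31.3% of the table. A GATA or TATC was found in 109 (60.9%), against 50.5% of all promoters of that length in the table. The longer motif AGATAA or its reverse complement TTATCT was found in 24 (13.4%, against 10.5%), and TGATAA or TTATCA in 12 (6.70%, against 7.76%). Both longer motifs contain GATA or TATC. Most windows do not lie on these stretches, so the shares describe the genes and not the DNA under the windows. For the 18 genes whose lowest window of a region was within 500 bp of the start, 15 promoters were found, and their median GC share was lower still, at 43.3%, with 11 under 50% GC. Of these 15, 13 (86.7%) held GATA or TATC, 3 (20.0%) AGATAA or TTATCT and 5 (33.3%) TGATAA or TTATCA. The part of the low GC share in these few counts was not tested. Of all genes on the arrays 76.5% could be matched to a promoter, too few to set the members against the arrays themselves.

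Of 287 microRNA genes on the arrays 4 (1.39%, close to the 1.21% of all genes) were also members, hsa-mir-105-2, hsa-mir-135a-2, hsa-mir-448 and hsa-mir-363. MicroRNAs repress messenger RNAs that pair with their seed. The mature forms listed for them in RefSeq are shown with the seed, bases 2 to 8, in capitals, and no seed is shared between the genes among the forms shown. For hsa-mir-135a-2 the table holds 1 form.
hsa-miR-105-3p: aCGGAUGUuugagcaugugcua
hsa-miR-105-5p: uCAAAUGCucagacuccuguggu
hsa-miR-135a-2-3p: aUGUAGGGauggaagccaugaa
hsa-miR-448: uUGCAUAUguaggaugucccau
hsa-miR-363-3p: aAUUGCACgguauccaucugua
hsa-miR-363-5p: cGGGUGGAucacgaugcaauuu

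The region at hsa-mir-105-2 was among the widest, with 4 windows over 1145 bp, and its lowest window read -3.96, -2.69 and -3.53. It lay 2713 bp upstream, and a second region lay 5344 bp upstream. The gene of GABRA3, a subunit of the receptor for GABA, had a region of 3 windows on the same stretch of chromosome X. The windows of hsa-mir-135a-2 and hsa-mir-448 were 5185 and 4566 bp upstream, with means of -3.34 and -3.29, and that of hsa-mir-363 was 469 bp downstream with a mean of -3.12. All 4 genes thus had single or few windows away from the hairpin rather than across it.

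Coordinates of windows are given below as in the files, whose build is not given in the sources used here. The lowest window of all was inside OR4C11, an olfactory receptor gene, at chr11:55127754-55128168, where the 3 probes read -4.24, -4.76 and -5.33 and averaged -4.78. This value was -3.66 when both channels had to be well above background, which re-forms the window, and -0.50 from uncorrected signals. Its center was 470 bp downstream of the start. The next was inside MLF1, a gene first found at a translocation in myeloid leukemia, where the probes read -5.36, -5.96 and -2.83 with a mean of -4.72. Next was a window inside CHRM2, a muscarinic acetylcholine receptor, with -5.11, -5.15 and -3.58. Another was downstream of OR5P3, with -4.35, -3.95 and -5.45. In OR4C11, CHRM2 and OR5P3 all 3 probes were under -3, and in MLF1 2 of 3 were. At CHRM2 no window was left at this place when both channels had to be well above background.

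The other 11 of the 15 lowest regions averaged between -4.51 and -3.96 at their lowest window. They belonged to the neuronal membrane protein SLITRK2 (-5.29, -4.07 and -4.19 at its 3 probes), RIPPLY2, named C6orf159 on the array, a regulator of somite formation (-4.55, -4.88 and -3.88), and ZC4H2, named KIAA1166 (-5.73, -2.28 and -5.02). Then came the olfactory receptor gene OR1L8 (-3.91, -4.10 and -4.89), CDR1 (-4.06, -3.64 and -5.13), a gene named after cerebellar degeneration, and OGT (-5.26, -3.90 and -3.498), the transferase that puts N-acetylglucosamine on proteins. BRS3, a receptor of the bombesin family, read -4.07, -4.24 and -3.97. ZNF608, a zinc finger gene, read -4.22, -4.12 and -3.79. The rest were DMAC1 (C9orf123; -3.52, -4.94 and -3.64), a gene of complex I assembly, DCAF12L1 (WDR40B; -5.13, -3.88 and -2.95) and TEKT3, a gene of the sperm flagellum (-4.01, -3.40 and -4.49). BRS3 and ZNF608 were the most even of these, with an SD of 0.14 and 0.23 log2 units over their 3 probes, while that of ZC4H2 was 1.83. Of the 15 regions, SLITRK2, ZC4H2, CDR1, OGT, BRS3 and DCAF12L1 were on chromosome X, and 3 were at olfactory receptor genes.

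**Figure D1:**
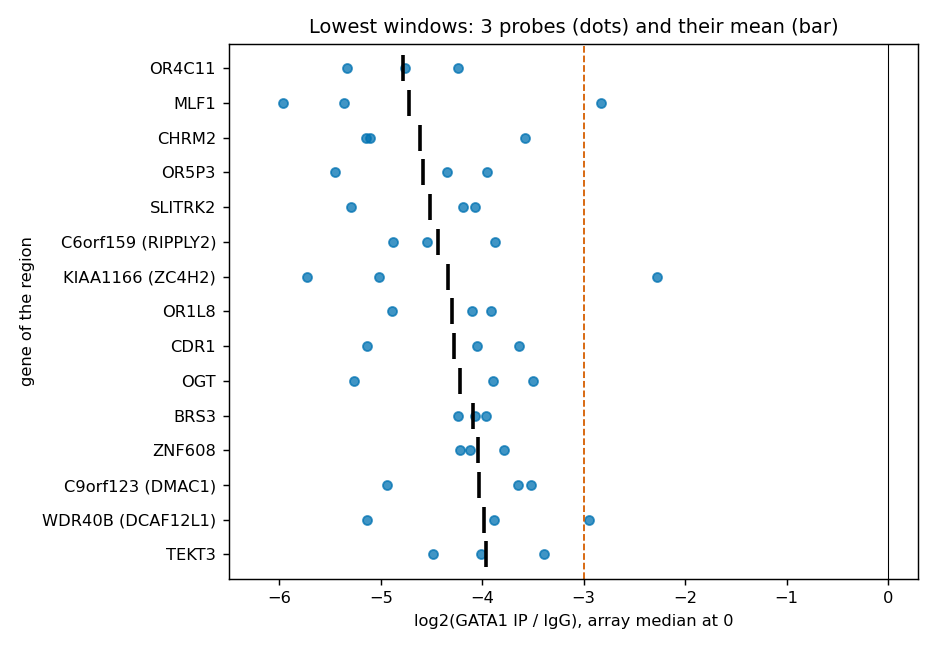
The 15 regions with the lowest windows (rows, named as on the array with the RefSeq symbol in parentheses) and the log2(IP/IgG) of the 3 probes of each lowest window (dots, 1 hybridization each), with their mean (bar). The dashed line marks the threshold of -3. The means run from -4.78 at OR4C11 to -3.96 at TEKT3, and 3 dots, at MLF1, ZC4H2 and DCAF12L1, lie above -3.

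Across all 366 windows the median mean was -3.22, close to the threshold that chose them. All 3 probes were at or under -3 in 52 windows and at or under -2 in 257. A probe above -1 was part of 19 windows, and in 1 window a probe was above 0, at 0.25. The SD of the 3 probes had a median of 0.89 log2 units, compared with 0.49 over all windows. At the threshold, the last windows inside were at FAM133A (RP1-32F7.2 on the array, mean -3.0045) and POPDC1 (BVES, -3.0005), and the first outside were at ANK2 (-2.9996) and IL13RA2 (-2.9979). The window of ANK2 held 1 probe at 0.17 beside -4.69 and -4.47.

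Most regions were narrow. The median length was 467 bp, 128 regions held 1 window and 101 held 2 or more. The most windows, 5, were found at POPDC1, a membrane protein gene of heart and skeletal muscle, over 1232 bp, and at CADM2 (IGSF4D), a synaptic adhesion gene, over 2860 bp, the longest region. At POPDC1 the lowest window read -3.89, -3.55 and -3.55 and at CADM2 -2.95, -3.45 and -3.004, so the widest regions were shallower than the deepest ones. SLITRK2 combined both, with 4 windows over 747 bp. PKIA, an inhibitor of protein kinase A, had 4 windows with a lowest mean of -3.45. Of the genes, 16 had 2 or more regions and 1, the serotonin receptor gene HTR2C, had 3, at 1125, 144352 and 240428 bp downstream of its start with lowest windows of -3.62, -3.36 and -3.32. HTR2C is named because of these values.

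The windows were dim in both channels and close to the negative control spots in the IP channel. The windows held 836 probes, 362 on chIP1 and 474 on chIP2. Their median mean signal, before any correction, was 354 scanner units in the IP channel of chIP1 and 352 on chIP2. The negative control spots, 1371 on each array, had medians of 342 and 340, and all kept probes had 543 and 545. Within the 5th to 95th percentile of the negative controls lay 22.9% and 25.3% of the member probes, and the 95th percentile of the member probes was 415 and 405 units, against 346 and 345 for the controls. In the IgG channel the member probes had 356 and 367, against 303 at the negative controls of both arrays and 412 and 440 over all kept probes. After the correction by the scanner software, the medians of the member probes were 52.9 and 46.7 in the IP channel against 869 and 842 over all kept probes, and 445 and 422 in the IgG channel against 920 and 887. On this corrected scale the median member probe stood at percentile 1.54 and 1.67 of its array for the IP, and at percentile 24.98 and 25.2 for IgG. None of the 836 probes was saturated.

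The 3 probes of OR4C11 averaged 345 units for the IP and 399 for IgG, those of MLF1 344 and 375, and those of CHRM2 347 and 357. OR5P3 was brighter in IgG, with 363 and 576. At OR1L8 the IP average of 341 was above the IgG average of 321 in these raw units, and the log2 ratio of -4.30 arose after correction and dye normalization. The scanner software marked 88 member probes (10.5%) as not well above background in the IP channel, compared with 0.139% of all kept probes, and 2 in the IgG channel. Of the 229 regions, 65 had such a probe in their lowest window. Setting those probes to at least the lowest signal called well above background moved no lowest window by more than 0.033 and put 1 region above -3. That lowest signal was 6.72 on chIP1 and 7.17 on chIP2 after correction, against medians of 52.9 and 46.7 for the member probes. The setting could thus move little, and it says nothing on how firm the ratios are.

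**Figure D2:**
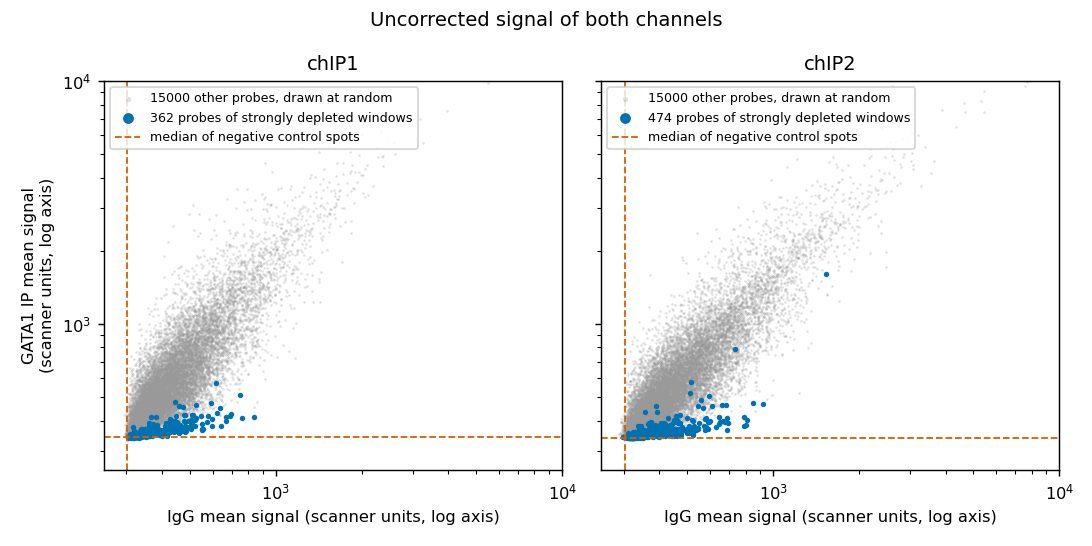
Mean signal of single probes before correction in the IgG channel (horizontal) and the GATA1 IP channel (vertical) of chIP1 and chIP2, in scanner units on log axes. Blue dots are the 362 and 474 probes of strongly depleted windows, gray dots 15000 other probes of each array drawn at random, and dashed lines the medians of the negative control spots. The blue dots lie low on the IP axis, with medians of 354 and 352 against 342 and 340 at the negative controls, and spread along the IgG axis.

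The size of the ratios rested on how this low signal was corrected. Read from the uncorrected mean signals, the 366 windows had a median of -0.39 and a range of -1.09 to -0.18, and none reached -3. With normexp, a background correction that does not let low signals approach 0, the median of the 366 was -1.26, with a range of -2.46 to -0.75. Ratios were narrower over the whole arrays too. Of all windows, 15 were at or under -1 uncorrected and 10374 with normexp, against 40101 with the processed signals. All 366 were below 0 under both of these settings, and 279 were at or under -1 with normexp. For the uncorrected signals 0 stands for the array median, so a value below 0 need not mean less IP than IgG signal. OR1L8 is such a case. These readings use the same spots that chose the windows and are no separate evidence of direction. Loess within each array started from the same processed signals and removed a trend of the ratio on intensity. After it the median was -3.10 and 240 of the 366 were at or under -3. Loess is no second background correction. The 8-fold size was thus seen only with the processed signals of the scanner software, for 240 windows also after loess on them.

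Nearly all windows were found among the dimmest of the arrays. When windows of each array were ranked by mean log2 intensity over both channels and split into 4 equal parts, 346 of the 366 (94.5%) were in the dimmest part, 18 in the next, 2 in the one after and 0 in the brightest. The ratio and the intensity share the IP signal, so this is in part built into the rule. The 164 windows with a mean of 3 or more were also mostly dim, with 138 (84.1%) in the dimmest part. Within it, 0.333% of the windows were strongly depleted. On the slide, the center probe and the next probe of these windows were a median of 245 spots apart, and in 0 of 366 windows were they within 5 spots of each other.

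Chromosome X held 107 of the 366 windows and 60 of the 229 regions. This was 0.591% of the 18103 windows on X, against 0.0652% of windows elsewhere and 0.0541% elsewhere on chIP2, the array that carries X. By genes, 48 of 683 on X (7.03%) were members, compared with 0.970% of genes on other chromosomes and 1.21% of all 17482. Besides those already named they included the glutamate receptor gene GRIA3 (lowest window -3.84), the collagen genes COL4A5 (-3.77) and COL4A6 (-3.25), the amino acid transporter gene SLC6A14 (-3.86), and MAGEC3 (-3.14) of the cancer-testis families. Chromosome 7 came next with 38 windows (0.197%), then 12 with 25 (0.116%) and 6 with 24 (0.107%), while chromosome 19 had 2 (0.0096%). In the same order, 30.3%, 30.5%, 26.4% and 5.37% of the windows of these chromosomes were in the dimmest part of their array.

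Other properties of X moved with this count. Its probes were dimmer than those of the rest of chIP2, with median mean signals of 440 against 563 in the IP channel and 376 against 450 in the IgG channel, and 54.1% of its windows were in the dimmest part, against 22.2% elsewhere on that array. Within the dimmest part, 1.02% of X windows were strongly depleted, compared with 0.232% of the others on chIP2. The whole spread was wider on X, where window means had an SD of 1.01 against 0.73, and windows of 3 or more were also more frequent, at 0.116% against 0.0292%. The median window of X was -0.03, against 0.02 elsewhere. Windows at -1 or lower made up 17.4% on X and 8.85% elsewhere on chIP2. The part of the low signal in the count on X was not tested beyond these values. A stretch of X from 60 to 150 Mb, chosen after the positions had been seen, held 88 of the 107 windows, or 0.939% of its windows, against 0.217% of the rest of X.

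**Figure D3:**
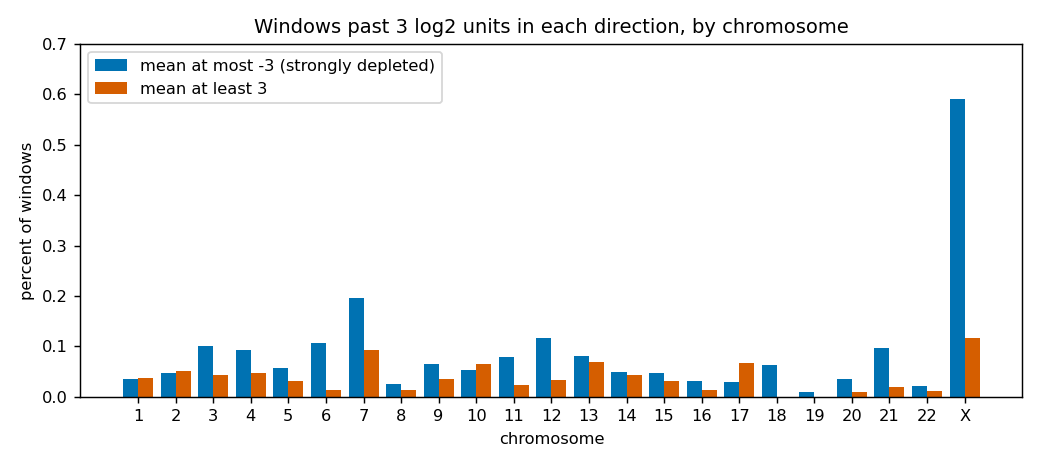
Percent of all windows of each chromosome with a mean of at most -3 (blue) or at least 3 (orange), both arrays together and the Y chromosome left out. X stands at 0.591% and 0.116%, chromosome 7 at 0.197% and 0.0931%, and every other chromosome is lower than chromosome 7 in both directions.

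Strongly depleted windows were sparse at transcription starts. Their centers lay a median of 2595 bp from the annotated start, compared with 1563 bp over all windows, and 31 (8.47%) were within 500 bp, compared with 19.3% of all windows. The share of windows taken was lowest in the 500 bp upstream of the start, at 0.0371% (14 windows), and in the first 500 bp downstream, at 0.0401% (17 windows). It was 0.141% from 4000 to 2000 bp upstream (85 windows), 0.161% farther upstream (57 windows), and 0.206% more than 10000 bp downstream (45 windows). Dim windows followed a similar course, from 16.6% and 14.3% of windows in the dimmest part next to the start to 37.3% beyond 4000 bp upstream and 30.8% beyond 10000 bp downstream. The part of intensity in this profile was not tested. The signed median was -769 bp, and its sign changed with the settings given in the closing section. By the annotation of the array, 194 windows (53.0%) were in promoters, compared with 45.5% of all windows, 156 (42.6%) inside genes, compared with 49.1%, 9 downstream and 2 in divergent promoters, where 2.54% of all windows lie. Both divergent windows and another one inside LCE1B joined into the region of LCE1C and LCE1B, genes of the late cornified envelope of skin, with a lowest window of -3.79.

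**Figure D4:**
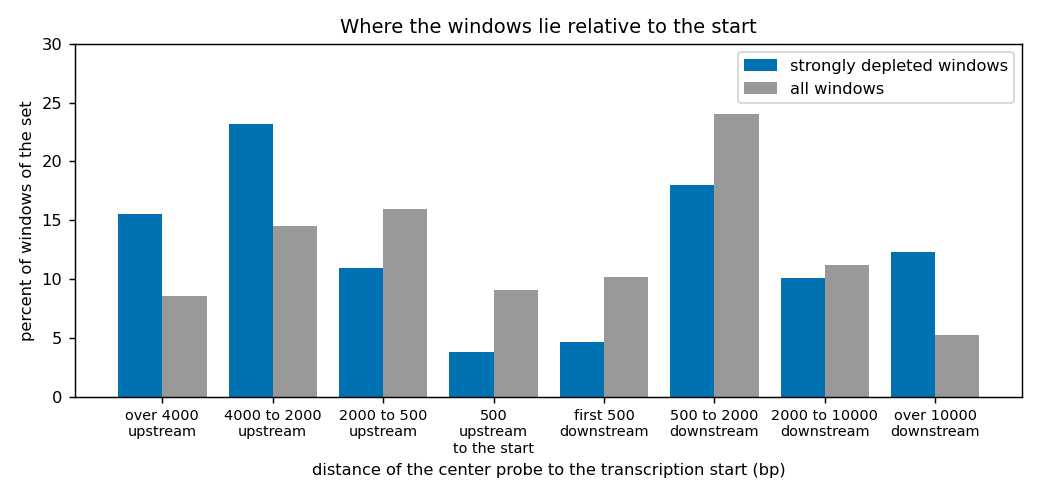
Share of the 366 strongly depleted windows (blue) and of all 415409 windows (gray) in 8 zones of distance between the center probe and the annotated transcription start, in bp. Blue bars are lower than gray bars from 2000 bp upstream to 10000 bp downstream of the start and higher farther upstream and beyond 10000 bp downstream.

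Genes were grouped by name into 38 families. Olfactory receptors, the odorant receptors of the nasal epithelium that are clustered on several chromosomes, had the most members, 14 of 305 (4.59%, against 1.21% of all genes). After OR4C11 (-4.78), OR5P3 (-4.58) and OR1L8 (-4.30), the other 11 had lowest windows between -3.497 and -3.04. The 14 genes were spread over 7 chromosomes, with 6 of them on chromosome 11. The whole family leaned the same way, with a median lowest window of -1.81 over its 305 genes against -1.04 over all genes, and 87.5% of the family, against 52.5%, had a window at -1 or lower. Its windows were dim, 65.8% of them in the dimmest part against 24.7% of all windows of genes. Within the dimmest part 0.508% of olfactory receptor windows were strongly depleted, against 0.329% of all. Other windows of these genes lay on the other side. The highest, at OR4C11, had a mean of 1.83, whereas none at OR1L8 was above -0.18.

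Besides the microRNAs above, 5 other families had 3 or more members, to be read against 1.21% of all genes. Of 23 cadherins, which join cells to each other, 3 (13.0%) were members, CDH18 (-3.64), CDH9 (-3.39) and CDH19 (-3.03). Of 42 collagens, the fibers and sheets of the matrix, 4 (9.52%) were members, COL4A5, COL3A1 (-3.27), COL4A6 and COL10A1 (-3.03). Of 94 potassium channels 3 (3.19%) were members, KCNC2 (-3.75), KCNJ16 (-3.45) and KCNH5 (-3.01), and of 111 orphan or former orphan receptors named GPR 4 (3.6%) were, GPR22 (-3.57), GPR74, now NPFFR2 (-3.24), GPR37 (-3.20) and GPR174 (-3.05). Of 383 solute carriers 4 (1.04%, under the share of all genes) were members, led by SLC6A14, SLCO1A2 (-3.47) and SLC13A1 (-3.41). In the dimmest part, where 0.329% of all windows of genes were strongly depleted, the share was 1.78% for cadherins and 1.37% for collagens, on 6 windows each, 0.611% for GPR genes, 0.412% for potassium channels and 0.236% for solute carriers.

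Smaller counts were found for the glutamate receptors of fast neurotransmission, with GRIA3 and GRIK2 (-3.41) of 28 genes. Of 43 keratin-associated proteins, components of hair, KRTAP21-2 (-3.47) and KRTAP23-1 (-3.14) were members. Zinc finger genes named ZNF had 2 members of 448 (0.446%, below the share of all genes), ZNF608 and ZNF304 (-3.24), and 16.7% of their windows were in the dimmest part. Of the families, 21 had no member, where 1.21% of all genes leaves few or none for lists of this size, among them the HOX cluster (39 genes), the clustered histone genes (63), ribosomal proteins (80) and interleukins with their receptors (92). Members tended to be genes with more windows, a median of 31 against 23, which gives more windows that could be taken. Of the 211 genes, 134 (63.5%) also had a window at 1 or higher, against 56.8% of all genes.

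None of 28 known GATA1 targets of red cells and megakaryocytes had a strongly depleted window, a count near what the 1.21% of all genes gives for so short a list. The lowest was SELP, the P-selectin gene of platelets, at -2.39, then FLI1, a transcription factor of megakaryocytes, at -2.20. The median over the 28 was -0.74, and 9 had a window at -1 or lower, against 52.5% of all genes. None of the 5 promoters that the study examined by PCR was a member either, and ANXA5, the annexin gene whose lowest window was at -1.11, was the lowest. The study used that PCR to check results of these same arrays, so their absence is no separate evidence. Outside both lists, and chosen after their values had been seen, CD36 and GNG11, which platelets express, were members. CD36, a scavenger receptor, read -2.74, -3.21 and -3.41 at a window 3565 bp upstream of its start, and elsewhere it had a window of 2.51. GNG11, a G protein subunit, read -3.32, -3.23 and -2.84 at a window 2850 bp upstream. DIAPH2, also chosen after its value had been seen, was a member, with its lowest window (-3.08) 201262 bp downstream of its start. Its highest window was 2.18. The study lists DIAPH2 among genes with a peak on these arrays and a changed transcript after GATA1 knockdown. The full list of such genes was not set against the members here.

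The rule used the 3 probes of a window. The probes around the lowest window of a region can be read too, though not all of them are separate from the rule. Between 250 and 500 bp from the center of the lowest window of each region, the mean of the remaining probes had a median of -1.27, and 182 of 201 regions with such probes were below 0. Some of these probes belong to other strongly depleted windows of the same region. The median was -0.51 from 500 to 750 bp, -0.37 from 750 to 1000 bp, and between -0.29 and -0.26 from 1000 to 3000 bp. Around the windows of 3 or more, the same medians were 0.66, 0.24 and 0.06 out to 1000 bp and about -0.07 beyond. The next probe on each side of these lowest windows, within 1000 bp of the center, gave 401 values with a median of -1.45. Of these 87.3% were below 0, against 48.6% of the probes beside all windows. Some of these next probes, too, are part of other strongly depleted windows. The comparison was with all windows and not with dim ones alone. The lowest window of a region was taken, so a next probe that was lower still would have moved the window onto it.

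**Figure D5:**
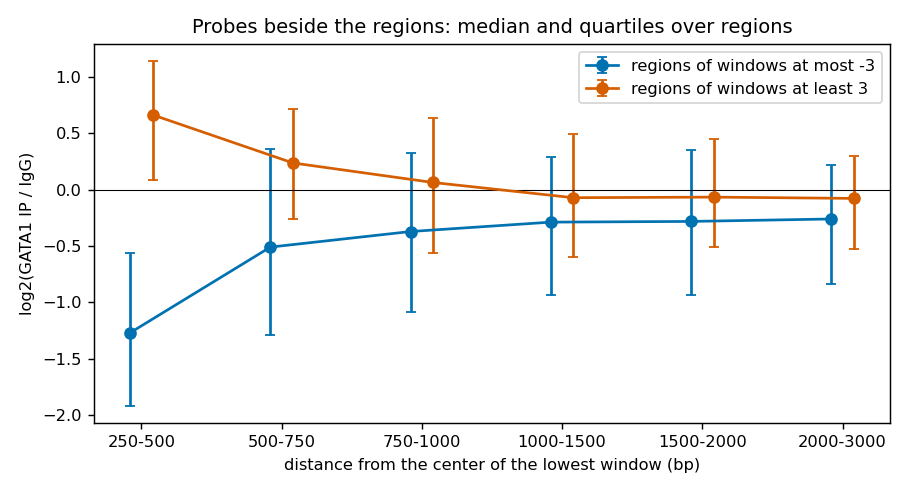
Log2(IP/IgG) of probes outside the lowest window of a region, by distance from its center in bp, as the median over regions (points) with the quartiles (bars). Regions of strongly depleted windows (blue) run from -1.27 at 250 to 500 bp to -0.26 at 2000 to 3000 bp, and regions of windows at 3 or more (orange) from 0.66 to -0.08.

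The only probes hybridized on both arrays were control probes, whose targets the files do not state. Of 3541 such probes with 1 spot per array, 33 were at -3 or lower on chIP1. On chIP2 these 33 had a median of -3.32 and a range of -5.29 to -0.67, and 24 were again at -3 or lower. In the other direction, 29 were at -3 or lower on chIP2, and on chIP1 they had a median of -3.34 and a range of -6.15 to -2.03, with 24 at -3 or lower. Their raw signals were like those of the member probes, where the 33 probes had medians of 350 and 349 units for the IP and 354 and 360 for IgG. Whether the same DNA preparations were hybridized to both arrays is not stated, so only the hybridization is known to have been repeated.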

How the data were processed

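GATA1 IP DNA (Cy5) and IgG DNA (Cy3) from untreated Meg-01 cells had been hybridized together to 2 arrays with different probes, 1 hybridization each. The authors deposited the scanner output. Per the file headers, the intensity values came from Agilent Feature Extraction 9.5.3.1 with its ChIP protocol, and the deposited processed intensities were corrected for a spatial background surface and dye bias. The deposited log10 ratios of the series table equal those of the scanner files. The intra-array and inter-array normalization and the peak calling of the study were not used here. The build of the probe coordinates is not given in the sources used here.

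For each probe the processed Cy5 and Cy3 intensities gave log2(IP/IgG), centered on the array median. Control spots, non-uniformity outliers and probes that passed the background flag in no channel were dropped, which kept 237004 of 237210 probes on chIP1 and 236864 of 237201 on chIP2. Windows, regions and families followed the definitions in the text, and a family was a pattern in gene names. Genes came from the accessions column of the arrays, and 207 of 211 members had a RefSeq symbol (40 of them renamed), while 5 windows had no gene. The members, lists and patterns were chosen with earlier results of these data known, and the pattern for ribosomal proteins was corrected after its result had been seen because it caught a kinase gene. Named genes are those of the 15 lowest and 5 widest regions, the neighbors of the threshold, the 3 lowest members of families with at least 3, and listed GATA1 targets. Genes shown for sequence and any others were chosen after their values had been seen. No test was run. The number of arrays limits the precision. The window caller was tested on simulated windows away from the threshold, over a quiet background. That checks the code and not the calls near the threshold. Alternatives were loess and normexp (offset of 50), uncorrected signals, the series table, other filters, other window statistics and widths, thresholds of -2.5 and -3.5, and joining within 500 bp. The count on X and the reading of the same windows under other corrections were added once the data were known. Python 3.11.15, numpy 2.4.6, pandas 2.3.3, R 4.3.3 and limma 3.58.1 were used.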

Additional observations from a re-analysis of the deposited data

How the results depend on the processing

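The number of strongly depleted windows depended on the background correction more than on any other choice. With normexp and with uncorrected mean signals, 0 windows, 0 regions, 0 genes and 0 olfactory receptor genes were left, where limma served only for the correction and no test was run. Both narrow the ratios of the whole arrays, with 10374 and 15 of all windows at or under -1, against 40101 in the text. A fixed cut of -3 could therefore hardly be met there by any window. Under these settings no distance or share could be given, and the lowest windows of the 19 regions in the text lay between -2.21 and -0.93 with normexp and between -0.89 and -0.28 uncorrected. Loess left 240 windows in 157 regions, the median of 3 probes gave 583 windows, and the series table, the spot filters, a floor on dim IP signals and joining within 500 bp kept every count within 1.5 times, with 276 to 369 windows. The floor was set so low that it could change few values.

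Requiring all 3 probes at -3 gave 52 windows in 45 regions with 45 genes and 6 olfactory receptor genes, and 13.5% within 500 bp of a start. Windows of 5 probes gave 70 in 39 regions with 41 genes and 4 olfactory receptor genes, 4.29% within 500 bp and 98.6% in the dimmest part. At a threshold of -2.5 there were 1288 windows, 713 regions, 652 genes, 50 olfactory receptor genes and 89.1% in the dimmest part, and at -3.5 there were 78, 58, 56 and 3. The median distance to the start turned from -769 bp to 236.5 bp with all 3 probes required, 1428.5 bp with 5 probes and 867 bp at -3.5. The cause was not tested. The percent of windows on X, 29.2% in the text, ranged from 21.0% at -2.5 to 50% with 5 probes among the settings that left windows. When both channels had to be well above background, 14 of the 19 regions still had a window at the same place, re-formed where probes had been dropped. Of these, 11 were at or under -3, while ZC4H2, OGT and ZNF608 lay at -2.76, -2.57 and -2.77. No window was left at the place of CHRM2, RIPPLY2, OR1L8, DCAF12L1 and PKIA. No paired analysis was possible because the 2 arrays hold different probes and no test was run.

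Each value rests on 1 hybridization, and the IP signal of these windows was close to that of the negative control spots. Neither a second pull-down nor an input sample was analysed here.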
